A study of Homo sapiens with 29 samples.

Results

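The genes described here encode the proteins of the ribosomes, both of the cytosol and of the mitochondrion. The rule for members used the symbol alone, but it was chosen with earlier results of these data known. A gene was a member if its symbol began with RPL, RPS, MRPL or MRPS and a digit, did not end in P and digits (mostly pseudogenes), and did not name an S6 kinase (RPS6K). Of 14884 genes named on the array, 131 met the rule. They were 53 genes of the cytosolic class, 73 of the mitochondrial class and 5 others, which are antisense or divergent non-coding RNAs (MRPL20-AS1, MRPL23-AS1, RPL26L1-AS1 and RPL34-DT) and the readthrough transcript RPL36A-HNRNPH2. The naming rule also left out 27 symbols ending in P and digits, among them the coding gene RPS19BP1, and 2 S6 kinases.

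Total RNA came from HepG2, a human liver cancer line that keeps much of the gene expression of hepatocytes. Cells were grown without treatment and collected at 0, 6, 12, 18, 24 and 48 h, or were treated with CCL, the plant Cratoxylum cochinchinense, and collected at 6, 12, 18, 24 and 48 h. The 29 Affymetrix arrays fall into 11 groups. There were 3 CCL and 3 untreated arrays at 6 h and again at 12 h, 3 CCL and 2 untreated at 18 h, 2 CCL and 3 untreated at 24 h and at 48 h, and 2 untreated at 0 h. Arrays carry a set number from 1 to 3. At 18 h and 0 h the untreated arrays are sets 1 and 3, and at 24 h and 48 h the CCL arrays are sets 1 and 2. The labels name no dose and no vehicle control, and do not say what a set is. Nor do they say whether the arrays of a group come from cultures grown apart, so the error behind each p-value may be partly technical. HepG2 is a single cell line, so no other genetic background was compared.

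A ribosome is built from a small and a large subunit, each a scaffold of ribosomal RNA with many proteins. Cytosolic ribosomes translate all nuclear-encoded messenger RNAs, and their proteins are named RPS (small) and RPL (large). Mitochondrial ribosomes translate only the few messenger RNAs of the mitochondrial genome, which code for subunits of the respiratory chain and ATP synthase. Their proteins (MRPS and MRPL) are nonetheless encoded in the nucleus, translated in the cytosol and imported. Messenger RNAs of cytosolic ribosomal proteins are known for starting with a C followed by an unbroken run of pyrimidines, the terminal oligopyrimidine (TOP) motif, through which growth signals control their translation. An array measures messenger RNA and not its translation.

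The start sites of the members are shown because the classes differ most plainly there. Promoters were taken from RefSeq (GRCh38.p14), as windows of 300 bases with 250 before the annotated start, and were found for 48 of 53 cytosolic and 65 of 73 mitochondrial members. A TOP motif was scored as a C at the start base followed by at least 4 pyrimidines (C or T) on the gene's strand. It was present in 29 cytosolic members (60.4%) and 5 mitochondrial members (7.69%). The share was 4.04% of all 27305 promoters and 4.6% of the 15843 protein-coding ones. Allowing the C to lie up to 5 bases either side of the annotated start gave 75% and 21.5%. The shares were 21.1% of all promoters and 22.1% of protein-coding ones. The windows below hold 10 bases before the start and 20 from it, with the pyrimidine run in capitals. They belong to cytosolic members whose CCL mean was above the untreated mean at all 5 times, though not to all of these. RPS26 follows, the only cytosolic member below it at all 5. Last are the mitochondrial members MRPL49 and MRPS21, which were also below it at all 5. MRPL40 and MRPS33, likewise below at all 5, are printed further down, and MRPS33 carries a run at its start. The mitochondrial members above the untreated mean at all 5 times, MRPL28, MRPL58, MRPS30 and MRPS35, carry no run at the start base.
RPL12 (chr9:127451387-127451416, minus strand): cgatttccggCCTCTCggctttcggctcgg
RPL38 (chr17:74203668-74203697, plus strand): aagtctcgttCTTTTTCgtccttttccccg
RPL41 (chr12:56116623-56116652, plus strand): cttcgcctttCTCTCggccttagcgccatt
RPS14 (chr5:150449720-150449749, minus strand): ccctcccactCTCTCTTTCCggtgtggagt
RPL10 (chrX:154398055-154398084, plus strand): ccactctcagaaatatacgtctgtcacagt
RPL17 (chr18:49492446-49492475, minus strand): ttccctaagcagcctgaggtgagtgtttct
RPS26 (chr12:56041908-56041937, plus strand): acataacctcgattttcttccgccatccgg
MRPL49 (chr11:65122173-65122202, plus strand): gtgtcacgtcactgctgagcgaccgcgcgg
MRPS21 (chr1:150293851-150293880, plus strand): ttccggtagtgagaacccttccggtgggct

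RPL12, RPL38, RPL41 and RPS14 carry the run at the annotated base, whereas RPL10, RPL17, RPS26 and both mitochondrial genes have none at that base. MRPS21 has a match when the C may lie up to 5 bases away. Other motifs were searched on both strands of the 300 bases. CCGGAAG, the core of sites for ETS-family factors such as GABPA, was present in 29.2% of cytosolic and 43.1% of mitochondrial members, against 10.7% of all promoters. AAGATGGC, the core of YY1 sites, was present in 10.4% and 29.2%, against 3.03%. GGGCGG, the SP1 core, was present in 47.9% and 61.5%, against 44.6%. The NRF1 site, GCGCA followed directly by TGCGC, was present in 2.08% and 1.54%, against 1.36%, and TATAAA in 8.33% and 3.08%, against 12%. Among protein-coding promoters alone the shares were 14.2% for CCGGAAG, 3.91% for AAGATGGC, 58.5% for GGGCGG, 1.75% for the NRF1 site and 9.63% for TATAAA. Against these, the cytosolic share of GGGCGG (47.9%) lay below the background and the mitochondrial share (61.5%) close to it. A match is a description of letters in the window and shows no binding.

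Longer promoters are given for members whose level was called different over the times of treatment (below), as 150 bases before the start and 30 from it. Capitals mark CCGGAAG and GGGCGG on either strand (CTTCCGG and CCGCCC on the other strand) and TOP runs. RPL8 was also called and its promoter is not printed.
RPS18 (chr6:33271925-33272104, plus strand): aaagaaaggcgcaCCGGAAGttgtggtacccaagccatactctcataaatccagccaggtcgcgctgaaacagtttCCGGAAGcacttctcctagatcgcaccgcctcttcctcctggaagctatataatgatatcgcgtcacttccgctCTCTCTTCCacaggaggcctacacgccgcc
MRPS35 (chr12:27710682-27710861, plus strand): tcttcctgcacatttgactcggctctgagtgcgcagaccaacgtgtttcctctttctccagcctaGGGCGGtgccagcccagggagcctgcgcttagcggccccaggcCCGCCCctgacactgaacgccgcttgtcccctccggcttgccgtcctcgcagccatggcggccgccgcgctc
MRPL30 (chr2:99181034-99181213, plus strand): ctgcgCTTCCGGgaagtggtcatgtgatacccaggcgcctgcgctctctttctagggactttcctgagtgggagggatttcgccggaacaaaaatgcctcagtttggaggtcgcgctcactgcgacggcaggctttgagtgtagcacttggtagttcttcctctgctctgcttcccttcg
MRPL40 (chr22:19432395-19432574, plus strand): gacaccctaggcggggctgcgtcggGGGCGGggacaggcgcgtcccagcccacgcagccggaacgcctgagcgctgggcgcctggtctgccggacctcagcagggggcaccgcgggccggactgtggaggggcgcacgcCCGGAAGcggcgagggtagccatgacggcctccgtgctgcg
MRPL50 (chr9:101398589-101398768, minus strand): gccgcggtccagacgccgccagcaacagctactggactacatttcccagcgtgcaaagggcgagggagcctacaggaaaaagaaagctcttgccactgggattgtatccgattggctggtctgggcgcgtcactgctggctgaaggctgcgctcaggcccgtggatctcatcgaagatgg
MRPS33 (chr7:141014923-141015102, minus strand): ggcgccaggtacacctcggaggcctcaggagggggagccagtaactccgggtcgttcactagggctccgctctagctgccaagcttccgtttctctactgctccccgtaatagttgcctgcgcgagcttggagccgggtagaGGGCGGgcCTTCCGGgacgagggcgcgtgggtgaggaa

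RPS18 shows both a TOP run at its start and CCGGAAG at more than a single position. In MRPS33 the TOP run and the ETS match share letters. The printed stretch of MRPL50 holds none of the marked motifs. The longer window searched for MRPL50 does hold GGGCGG and AAGATGGC on a strand.

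Values are the authors' deposited RMA values, on a log2 scale. The medians over all probe sets differed between arrays. All 6 arrays of 12 h, in both arms, had medians from 2.51 to 2.54. At the other times 17 arrays had medians from 2.94 to 3.07, and 6 arrays, called distant here, lay outside that range. Those 6 are untreated 18 h set 1 (2.29), untreated 24 h set 1 (2.83), CCL 6 h set 1 (2.65), CCL 18 h set 3 (3.39), CCL 24 h set 1 (2.83) and CCL 48 h set 1 (2.75). Leaving them out keeps a single array each in untreated 18 h, CCL 24 h and CCL 48 h. Values without them are therefore a weak check. The median difference between CCL and untreated cells over all 6529 genes tested was 0.41 at 18 h and -0.26 at 48 h, against -0.06, -0.06 and 0.04 at 6, 12 and 24 h. Class medians are therefore given beside those of all genes. Of 8 hepatocyte markers, 7 were named on the array and all 7 lay above the detection filter, with means from 7.15 to 11.9. The leukocyte, fibroblast and endothelial markers that were named (1, 2 and 3 genes) all lay below it. In bulk RNA, fewer cells of a type and less RNA per cell cannot be told apart.

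Of the 131 members, 107 exceeded log2 5 on at least 2 arrays and were tested. They comprised 41 cytosolic members (26 of the large and 15 of the small subunit) and 66 mitochondrial members (42 large, 24 small). The filter was passed on all 29 arrays by 67 members and on fewer by 40, and RPS26, RPL30, MRPS33 and MRPL17 passed on only 2. For RPS26 and MRPS33 both of those arrays are untreated, so these genes entered the test only through the arm in which they were higher. Their lower values under CCL are no support for a fall, also where a count below includes them. For RPL30 and MRPL17 they are 1 CCL and 1 untreated array. The 24 members not tested had means from 2.38 to 4.52. They include the tissue-restricted paralogues RPL39L and RPL10L, known from testis, and RPL3L, known from striated muscle, whose means over all arrays were 2.38, 2.60 and 3.97. RPL22L1 and RPS27L, paralogues of RPL22 and RPS27, had means of 4.23 and 4.16. Genes such as RPL28, RPL31, RPL32, RPL37A, RPS7 and RPS9, which encode core proteins of every cytosolic ribosome, also lay below the filter, so a value below it does not show that a gene is silent.

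Over the 5 times together, few ribosomal protein genes differed between CCL-treated and untreated HepG2 cells. The mean of the 5 differences, tested with limma and called at a Benjamini-Hochberg adjusted p under 0.05, was called for 2 of 41 cytosolic members (4.88%), RPS18 and RPL8, which both rose. It was called for 5 of 66 mitochondrial members (7.58%), a count that includes MRPS33. Of these MRPS35, of the small subunit, rose, while MRPL30, MRPL40 and MRPL50 of the large subunit fell, as did MRPS33 of the small subunit, which was tested only through its untreated arrays. The background was 24.6% of the 6529 genes, with 13.6% higher and 11% lower, and the share called in each class lay below it.

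The class medians were small. The cytosolic median difference over the 5 times was 0.12, with 32 of 41 members (78%) above 0, whereas the mitochondrial median was -0.01 with 30 of 66 (45.5%) above 0. Over all genes the median was 0.01 and 52.1% lay above 0. After quantile normalization the medians were 0.09 and -0.04, and after leaving out the 6 arrays with distant medians they were 0.02 and -0.03, beside -0.04 for all genes. Within the classes, the median was 0.13 for the cytosolic large subunit and 0.07 for the small, and -0.02 and 0.00 for the mitochondrial large and small subunits. The 95% confidence interval of the mean difference lay wholly within 0.5 either side of 0 for 33 cytosolic members (80.5%) and 56 mitochondrial members (84.8%), against 60% of all genes.

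**Figure D1:**
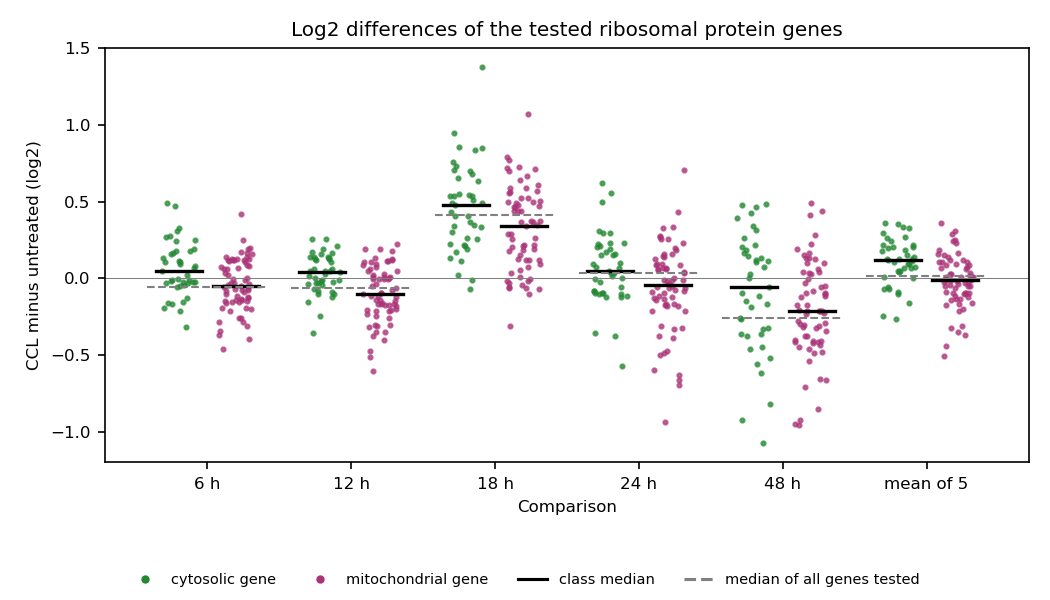
Log2 difference between CCL-treated and untreated cells for each tested member at 6, 12, 18, 24 and 48 h, by class, with the class medians and the median of all genes tested. At 18 h both class medians (0.48 and 0.34) shifted up together with the median of all genes (0.41).

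At 6 h and 12 h, limma called none of the 41 cytosolic members. At an unadjusted p under 0.05 the cytosolic count was also 0 at both times. None of the 66 mitochondrial members was called either, with 1 (1.52%) at an unadjusted p under 0.05 at each time. Of all genes 8.07% and 11.4% had such a p at 6 h and 12 h. The background was 0.306% of genes at 6 h (0.276% higher and 0.0306% lower) and 1.24% at 12 h (1.04% and 0.199%). The cytosolic medians were 0.05 and 0.04 and the mitochondrial ones -0.05 and -0.10, the former turning to 0.02 after quantile normalization. Groups of CCL and untreated arrays did not overlap for 4 cytosolic members that were higher and 2 that were lower at 6 h (all genes 6.23% and 13.8%), and for 2 and 2 at 12 h (11.8% and 21.4%). The mitochondrial counts were 0 higher and 4 lower at 6 h, and 0 and 9 at 12 h, which is no larger a share of the class than the background.

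At 18 h, RPL19 and RPL30 of the cytosolic large subunit and MRPS28 of the mitochondrial small subunit rose, against 12.5% of all genes called (12.3% higher and 0.184% lower). These were 2 of 41 and 1 of 66 members. The cytosolic median was 0.48 and 39 of 41 members lay above 0, while the mitochondrial median was 0.34 and 55 of 66 lay above 0 (87% of all genes). All 26 tested proteins of the cytosolic large subunit lay above 0, and 19 of them after quantile normalization. CCL and untreated arrays did not overlap, with CCL higher, for 21 cytosolic members (51.2%) and 19 mitochondrial members (28.8%), against 32.5% of all genes. No member of either class was lower without overlap, against 2.56% of all genes. After quantile normalization the medians at 18 h were 0.05 and -0.07, with 28 cytosolic and 26 mitochondrial members above 0, so the direction of the mitochondrial class turned with the scaling. Without the 6 distant arrays they were 0.12 and 0.04, beside -0.03 for all genes.

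At 24 h limma called no member (background 3.02%, with 2.54% higher and 0.475% lower). At an unadjusted p under 0.05 there were 3 cytosolic (7.32%) and 5 mitochondrial members (7.58%), against 14.2% of all genes. After quantile normalization MRPL30 and MRPL50 were called, against 6.89% of all genes. The medians were 0.05 and -0.05, beside 0.04 for all genes, and the cytosolic one was -0.09 without the 6 distant arrays. Non-overlapping members numbered 1 higher and 2 lower in the cytosolic class and 5 higher and 4 lower in the mitochondrial class (all genes 13.9% and 5.39%).

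At 48 h MRPL30 fell, as did RPS26, which passed the filter only on untreated arrays, 1 of them at 48 h. They were 1 member of each class, against 6.56% of all genes called (1.33% higher and 5.22% lower). The cytosolic median was -0.06 and the mitochondrial median -0.21, both above that of all genes (-0.26). CCL lay below untreated without overlap for 9 cytosolic members (22%) and 23 mitochondrial members (34.8%), against 29.5% of all genes, and above it for 3 and 1 (10.3%). After quantile normalization both medians were above 0, at 0.11 and 0.03, so the sign of the class medians at 48 h depended on the scaling.

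**Figure D2:**
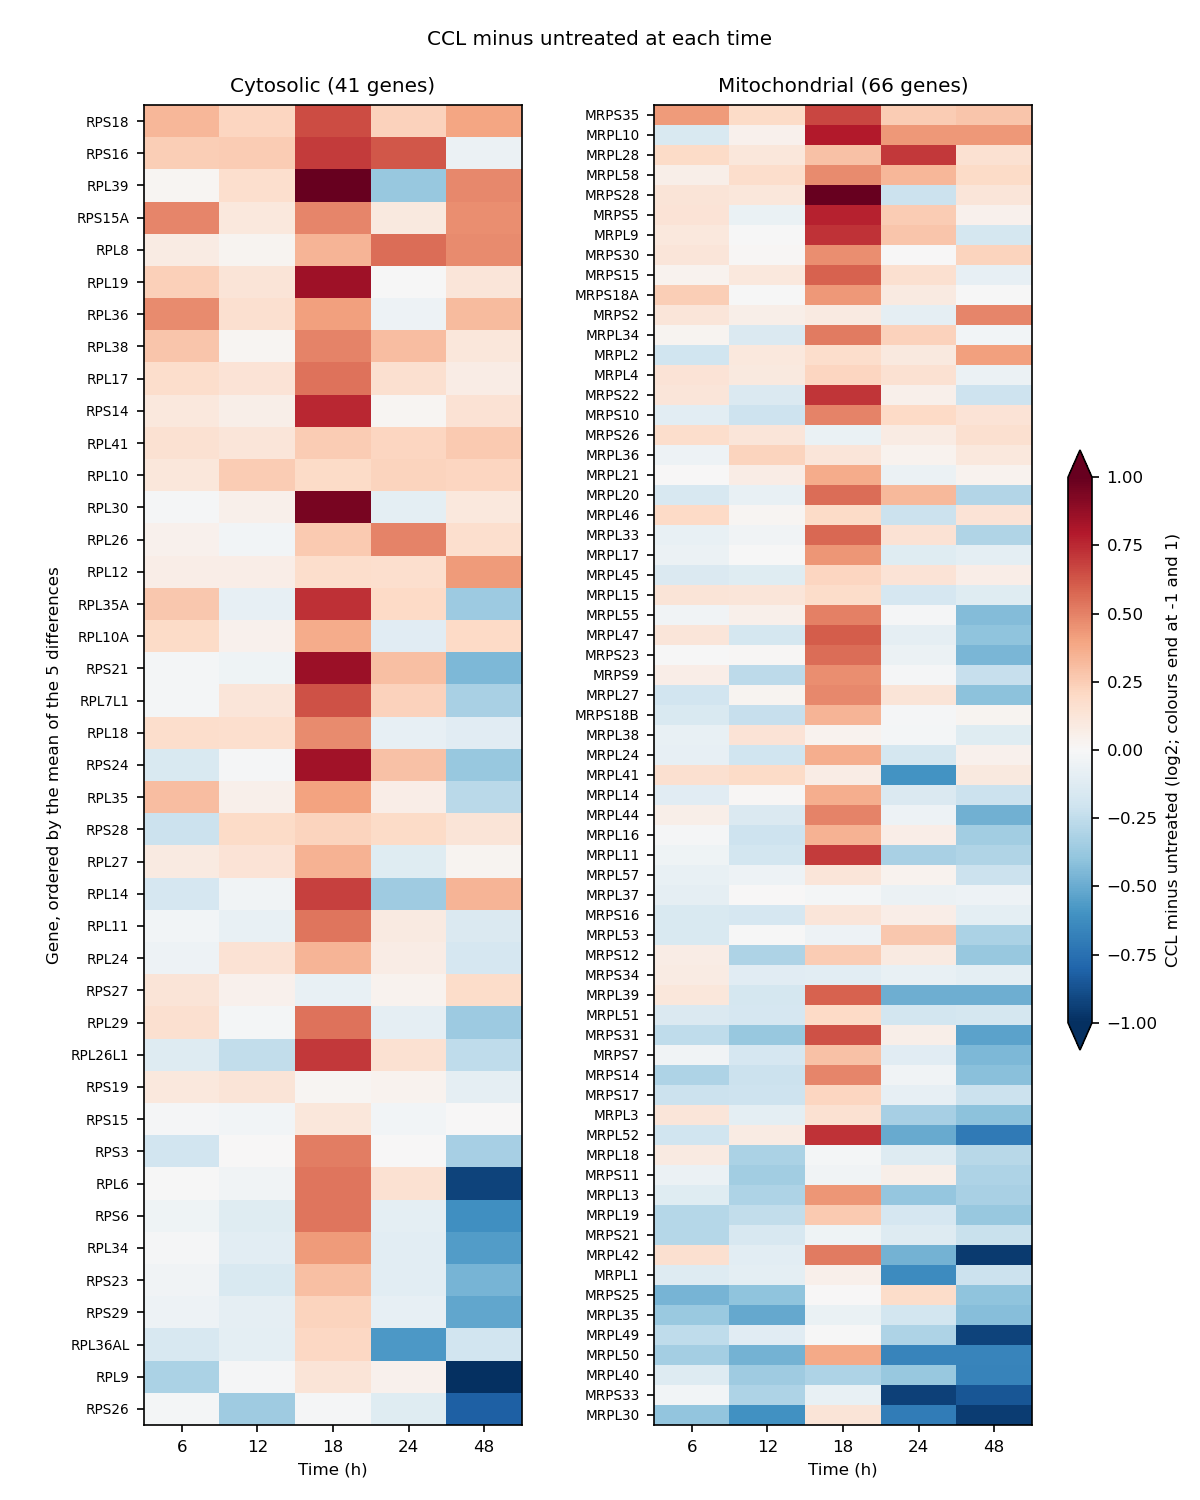
Log2 difference between CCL-treated and untreated cells at each of 5 times (columns) for the tested members (rows), grouped by class. The column for 18 h is mostly above 0 in both classes (39 of 41 cytosolic and 55 of 66 mitochondrial members).

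Whether the effect of CCL on a member differed between times was tested with an F-test in limma of the later effects against that at 6 h. No member of either class was called (lowest adjusted p 0.45), beside 1 call among all genes (0.0153%). At an unadjusted p under 0.05 there were 2 cytosolic (4.88%) and 0 mitochondrial members, against 10.7% of all genes. A member called at 18 h or 48 h is therefore not shown to have responded differently at that time. The CCL mean was above the untreated mean at all 5 times for 9 cytosolic members (22%). These were RPL8, RPL10, RPL12, RPL17, RPL38, RPL41, RPS14, RPS15A and RPS18, while RPS26 (2.44%) was below it at all 5. In the mitochondrial class MRPL28, MRPL58, MRPS30 and MRPS35 (6.06%) were above at all 5 and MRPL35, MRPL40, MRPL49, MRPS21 and MRPS33 (7.58%) below. Over all genes the shares were 15% above and 8.5% below. RPS26 and MRPS33, both counted here as below, passed the filter only on untreated arrays.

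**Figure D3:**
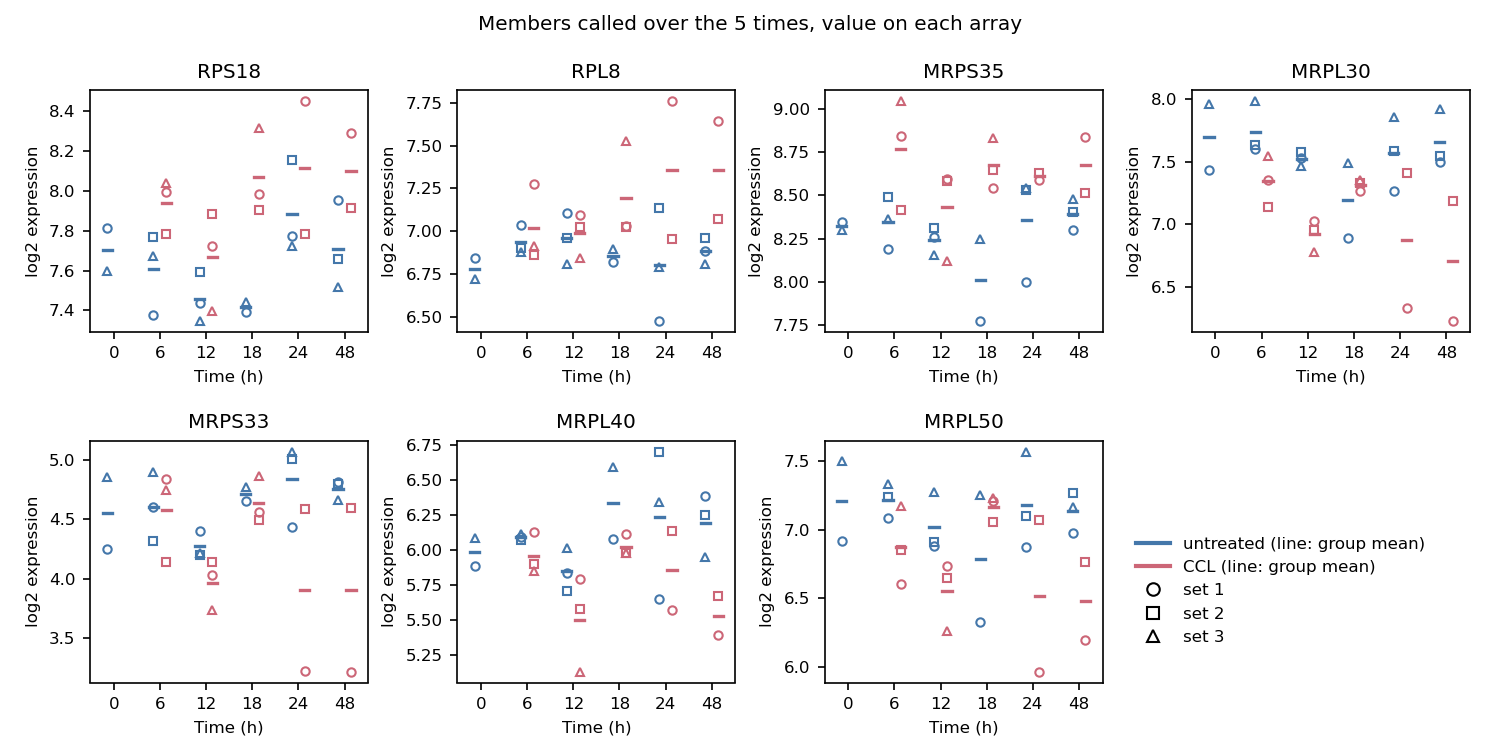
Log2 values on every array of the members called over the 5 times, by time, for CCL-treated and untreated cells. MRPL30 values of CCL-treated cells lie below all untreated values at 6, 12 and 48 h, and MRPS35 values lie above them at 18, 24 and 48 h.

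RPS18, a protein of the head of the small cytosolic subunit, had the largest positive mean difference among the cytosolic members. At 6 h the CCL arrays of sets 1 to 3 read 7.99, 7.78 and 8.04, and the untreated arrays 7.38, 7.77 and 7.68. At 18 h the CCL arrays read 7.99, 7.91 and 8.32, and the untreated arrays of sets 1 and 3 read 7.39 and 7.44. At these 2 times the groups did not overlap. At 12 h they overlapped, with 7.72, 7.89 and 7.40 under CCL against 7.44, 7.59 and 7.35. At 24 h the CCL arrays of sets 1 and 2 read 8.45 and 7.78, and the untreated arrays 7.78, 8.16 and 7.72. At 48 h they read 8.29 and 7.92, against 7.95, 7.66 and 7.52, so set 1 was the higher CCL array at both late times. The mean difference over the 5 times was 0.36 ± 0.10 (SE; 95% interval 0.16 to 0.57; 1.29-fold; limma adjusted p = 0.00825). RPS18 stayed called when any single array was left out (highest adjusted p 0.0371), but without all 6 arrays with distant medians the difference was 0.21 (adjusted p = 0.129).

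RPL8, a protein of the large cytosolic subunit near its peptidyl transferase center, had its largest mean differences at 24 h and 48 h. The F-test did not call its effect as different between times. At 24 h the CCL arrays read 7.76 and 6.96 and the untreated arrays 6.48, 7.14 and 6.79. At 48 h the CCL arrays read 7.65 and 7.07 and the untreated arrays 6.88, 6.96 and 6.81. The set 1 array was the high one at both times, and of these times the groups were apart only at 48 h. At 18 h the CCL arrays (7.03, 7.02 and 7.53) all lay above the untreated arrays (6.82 and 6.89), while at 6 h and 12 h the differences were 0.08 and 0.03. The mean difference was 0.30 ± 0.10 (SE; 1.23-fold; limma adjusted p = 0.0392). It was no longer called after leaving out a single array in 14 of 27 cases, with the highest adjusted p (0.149) without CCL 24 h set 1. Without the 6 distant arrays it was 0.06 (adjusted p = 0.608).

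MRPS35, a protein of the small mitochondrial subunit, was the mitochondrial member that rose. At 18 h the CCL arrays read 8.55, 8.65 and 8.83, and the untreated arrays 7.77 and 8.25. At 24 h the CCL arrays read 8.59 and 8.63, and the untreated arrays 7.996, 8.53 and 8.54. At 48 h the CCL arrays read 8.84 and 8.51, and the untreated arrays 8.30, 8.40 and 8.48. The groups were apart at each of these 3 times, by a narrow margin at 24 h and 48 h. At 6 h the CCL arrays read 8.84, 8.42 and 9.05 against 8.19, 8.49 and 8.36, and at 12 h 8.60, 8.58 and 8.12 against 8.26, 8.31 and 8.16, so the groups overlapped at both early times. The mean difference was 0.36 ± 0.10 (SE; 95% interval 0.16 to 0.56; 1.29-fold; limma adjusted p = 0.00722). It stayed called without any single array (highest adjusted p 0.0213) and was 0.23 (adjusted p = 0.0871) without the 6 distant arrays.

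MRPL30, a protein of the large mitochondrial subunit, had the largest negative mean difference of all tested members. At 6 h the CCL arrays read 7.35, 7.14 and 7.55, all below the untreated arrays at 7.60, 7.64 and 7.99. At 12 h they read 7.02, 6.95 and 6.78, below 7.53, 7.57 and 7.47. At 48 h the CCL arrays of sets 1 and 2 read 6.23 and 7.18, and the untreated arrays 7.50, 7.55 and 7.92. The groups were thus apart at 6, 12 and 48 h. They overlapped at 24 h (6.33 and 7.41 against 7.26, 7.59 and 7.86) and at 18 h (7.26, 7.33 and 7.35 against 6.89 and 7.49). In the untreated 18 h pair the lower value is that of set 1, an array with a low median. The mean difference was -0.50 ± 0.12 (SE; 95% interval -0.76 to -0.25; 0.705 of the untreated level; limma adjusted p = 0.00398). MRPL30 stayed called without any single array (highest adjusted p 0.0202), after quantile normalization, and without the 6 distant arrays (-0.40, adjusted p = 0.00708). At 48 h alone the difference was -0.95 ± 0.29 (limma adjusted p = 0.0477), and it was no longer called without CCL 48 h set 1 (-0.47) or without any 1 of the untreated 48 h arrays.

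MRPL40, a protein of the large mitochondrial subunit encoded in the region of chromosome 22 that is lost in DiGeorge syndrome, was lower in CCL-treated cells at all 5 times. At 48 h the CCL arrays read 5.39 and 5.67, below the untreated arrays at 6.39, 6.25 and 5.95. At 18 h the CCL arrays read 6.12, 5.98 and 5.98, and the untreated arrays 6.08 and 6.59. At 12 h the CCL arrays read 5.79, 5.58 and 5.13, and the untreated arrays 5.83, 5.71 and 6.02. Only at 48 h were the groups apart. The mean difference was -0.37 ± 0.11 (SE; 95% interval -0.60 to -0.14; 0.775 of the untreated level; limma adjusted p = 0.0171). It was lost only without CCL 24 h set 1 (adjusted p = 0.0622), and without all 6 distant arrays it was -0.41 (adjusted p = 0.00536). Without those arrays untreated 18 h, CCL 24 h and CCL 48 h hold a single array each, so that value is a weak check.

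MRPS33 and MRPL50, proteins of the small and large mitochondrial subunits, also fell. For MRPS33 the CCL arrays at 24 h read 3.22 and 4.59 and the untreated arrays 4.44, 5.01 and 5.07, and at 48 h 3.21 and 4.60 against 4.82, 4.80 and 4.66. The low array at both times is set 1, and MRPS33 exceeded the filter only on untreated 24 h sets 2 and 3. Its mean difference was -0.44 ± 0.15 (SE; 0.737 of the untreated level; limma adjusted p = 0.0321), and it was lost in 5 of 27 cases when 1 array was left out, the highest adjusted p (0.137) being that without CCL 24 h set 1. For MRPL50 the CCL arrays at 12 h read 6.74, 6.65 and 6.26 against 6.88, 6.91 and 7.27, and at 48 h 6.20 and 6.76 against 6.98, 7.27 and 7.17. These groups were apart at 12 h and 48 h. At 18 h its difference was 0.38, the opposite sign. The mean difference was -0.35 ± 0.13 (SE; 0.783 of the untreated level; limma adjusted p = 0.0485), and 21 of 27 single left-out arrays ended the call. Without the 6 distant arrays the values were -0.27 (adjusted p = 0.0878) for MRPS33 and -0.29 (adjusted p = 0.0619) for MRPL50.

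Among the members called at 18 h alone, MRPS28 of the small mitochondrial subunit read 6.86, 6.56 and 6.57 under CCL and 5.29 and 5.88 in untreated cells (difference 1.07 ± 0.31, limma adjusted p = 0.0276). RPL30, a protein of the large cytosolic subunit, read 4.70, 4.79 and 5.39 under CCL and 3.60 and 4.43 untreated (0.95 ± 0.26, limma adjusted p = 0.0191). RPL19, a protein of the large subunit, read 9.54, 9.26 and 9.51 under CCL and 8.02 and 9.15 untreated (0.85 ± 0.28, limma adjusted p = 0.0439). In each of the 3 genes the lowest value was that of untreated 18 h set 1, the array with the lowest median. Without it the differences were 0.78, 0.54 and 0.28 and none was called, and CCL 18 h set 3 also ended each call when left out. Their means over the 5 times were 0.24, 0.20 and 0.27 and were not called (adjusted p = 0.193, 0.198 and 0.104).

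RPS26, a small-subunit protein at the exit channel of the messenger RNA, passed the filter only on untreated arrays. At 48 h it read 3.77 and 4.22 under CCL and 4.51, 4.77 and 5.14 in untreated cells. The groups were apart there and at 12 h, and the 48 h difference was -0.82 ± 0.24 (limma adjusted p = 0.0444). It was lost without CCL 48 h set 1 (-0.59) and without untreated set 2 or set 3. Its mean over the 5 times was -0.27 ± 0.10 (adjusted p = 0.0654), and -0.34 (adjusted p = 0.0202) without the 6 distant arrays. RPL9, a large-subunit protein, showed how far a single array could carry a value. Its CCL arrays at 48 h read 4.25 (set 1) and 6.32 (set 2), against 6.31, 6.36 and 6.41 untreated, and the difference of -1.08 ± 0.35 was not called (limma adjusted p = 0.0591). RPL39 likewise read 3.21 on untreated 18 h set 1 and 6.05 on set 3, and its mean difference over the 5 times was 0.34 with that array and 0.05 without it.

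The other members with the largest mean differences were not called. In the cytosolic class these were RPS16 (0.35 ± 0.14, limma adjusted p = 0.0751) and RPS15A (0.33 ± 0.17, adjusted p = 0.155) above 0, and RPL36AL, RPS29 and RPS23 (-0.16, -0.10 and -0.09) below. In the mitochondrial class they were MRPL10, MRPL28 and MRPL58 (0.31, 0.29 and 0.25) above 0 and MRPL49 (-0.32 ± 0.14, limma adjusted p = 0.0955) below. MRPL58 is a peptidyl-tRNA hydrolase that frees stalled mitochondrial ribosomes. Several of these values rested on the 6 distant arrays, without which they were 0.11 for RPS16, -0.01 for RPS15A, 0.02 for MRPL10, 0.16 for MRPL28 and -0.10 for MRPL49. Without CCL 48 h set 1 alone, RPS15A was at 0.18, RPS29 and RPS23 at -0.04 and MRPL49 at -0.18. After quantile normalization 14 members were called, 5 cytosolic (12.2%) and 9 mitochondrial (13.6%), against 35.4% of all genes. They include 6 of the 7 called on the deposited values, with RPL8 the exception (0.27, adjusted p = 0.0597). The others were RPL17, RPL41, RPS16 and MRPL10, which were higher, and RPS26, MRPL35, MRPL49 and MRPS21, which were lower. The 14 include RPS26 and MRPS33, which were tested only through untreated arrays.

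Of the cytosolic paralogues, 3 were tested. RPL36AL is a near copy of RPL36A, with which array probes may cross-hybridize, and its CCL arrays lay below the untreated ones without overlap at 24 h and 48 h. Its mean difference was -0.16 ± 0.10 (limma adjusted p = 0.263). RPL26L1, a near copy of RPL26, differed by 0.05 ± 0.13 (limma adjusted p = 0.836). Its sign was not stable, since it was -0.11 without untreated 18 h set 1, 0.20 without untreated 18 h set 3 and -0.22 without the 6 distant arrays. RPL7L1, a relative of RPL7 that acts in ribosome assembly, differed by 0.13 ± 0.09 (adjusted p = 0.353) and by 0.63 ± 0.22 at 18 h (adjusted p = 0.0562). Its mean was 0.05 without CCL 48 h set 2.

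The mean of the tested mitochondrial members minus the mean of the tested cytosolic members was taken within each array. A uniform shift of an array leaves this class difference unchanged, but a shift that varies with level does not. Above log2 8 lay 12 of 41 cytosolic and 8 of 66 mitochondrial members. At 48 h the median difference between arms was -0.26 for cytosolic members below log2 6 and 0.13 above log2 8. For mitochondrial members these were -0.29 and -0.07. The part of such shifts in the class difference was not tested. The absolute size of the class difference depends on the probe sets, so only its change between arms is read. No p is given for it because the classes were chosen with earlier results known. At 6 h it was -0.55 ± 0.06 (SD, n = 3) under CCL and -0.44 ± 0.05 (n = 3) in untreated cells. At 12 h it was -0.52 ± 0.09 (n = 3) and -0.39 ± 0.03 (n = 3), and at 18 h -0.50 ± 0.04 (n = 3) and -0.36 ± 0.03 (n = 2). At these 3 times every CCL array lay below every untreated array of that time, so mitochondrial members were lower relative to cytosolic ones. At 24 h it was -0.58 ± 0.20 (n = 2) and -0.45 ± 0.08 (n = 3), and at 48 h -0.60 ± 0.15 (n = 2) and -0.49 ± 0.06 (n = 3), where the groups overlapped. The CCL arrays of set 1 were the low ones there (-0.72 at 24 h and -0.70 at 48 h), and those of set 2 read -0.44 and -0.50. The differences between arms were -0.11, -0.13, -0.14, -0.13 and -0.11 in order of time.

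Untreated cells moved on the same measure by about as much. They read -0.50 ± 0.08 (SD, n = 2) at 0 h, below every later untreated mean, so the CCL means at 6, 12 and 18 h lie close to that at 0 h. Within sets, the CCL array was lower in 10 of 12 pairs, over a range of -0.31 to 0.10, the exceptions being set 2 at 24 h and at 48 h. Without CCL 24 h set 1 the 24 h difference was 0.01, and without CCL 48 h set 1 that at 48 h was -0.01, so the late values rest on a single array each.

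**Figure D4:**
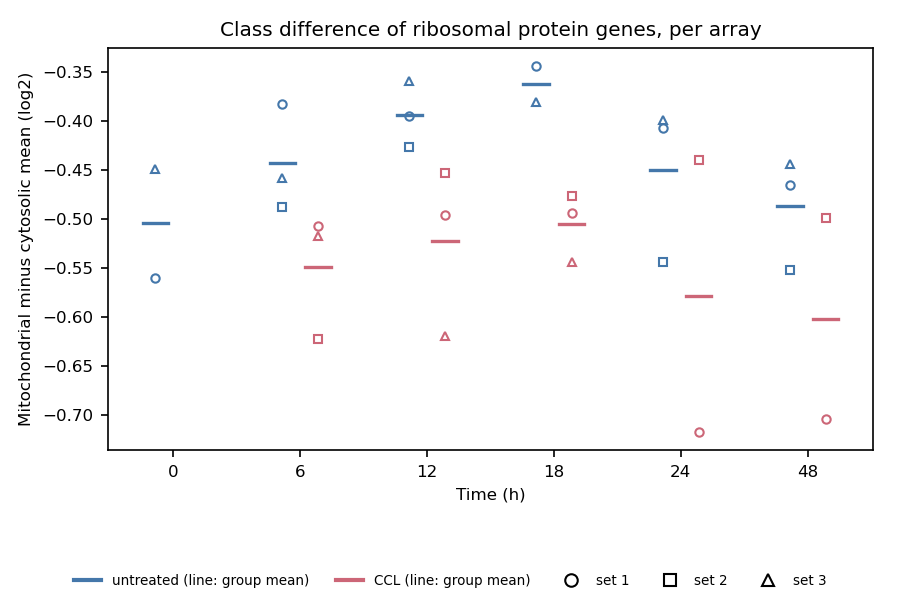
Mean log2 value of the tested mitochondrial members minus that of the tested cytosolic members on each array, by time and arm. CCL-treated arrays lie below the untreated arrays of their time at 6, 12 and 18 h and overlap them at 24 and 48 h.

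The members were also split by their start sites. Cytosolic members with a TOP run at the annotated base had a median difference over the 5 times of 0.12 (23 members, 19 above 0), and those without one 0.08 (15 members, 10 above 0). The 4 tested mitochondrial members with such a run had a median of -0.04 and the 55 without one -0.01. For tested genes that do not meet the naming rule the medians were 0.05 with a run (280 genes) and 0.01 without (4884 genes). These are descriptions of lists and were not tested.

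Other genes of the ribosome pathway were listed by their known function. Unlike for the members, no values with arrays left out are given for these genes. Factors of cytosolic ribosome biogenesis numbered 38 tested, with a median of 0.08. Over the 5 times 0 fell and 5 rose, which is close to the share of all genes called higher (13.6%, with 11% lower). They were DDX21 (0.47 ± 0.09, limma adjusted p = 0.000574), a nucleolar helicase of ribosomal RNA synthesis and processing, SBDS (0.44 ± 0.12), which helps release eIF6 from the large subunit, RRP12 (0.44 ± 0.13), needed for export of the subunits, and BOP1 and NOB1, which process large- and small-subunit RNA. Of 3 tested genes of RNA polymerase I and its factors, RRN3, its initiation factor, rose (0.40 ± 0.11, limma adjusted p = 0.00702). Of 11 tested factors of translation initiation and elongation, EIF4EBP1, which encodes an inhibitor of cap-dependent initiation, rose by 0.50 ± 0.14 and EEF1G, a subunit of the elongation factor 1 complex, by 0.30 ± 0.10.

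On the mitochondrial side, 1 of 6 tested translation factors fell, the release factor gene MTRF1 (-0.46 ± 0.16, limma adjusted p = 0.0368). Among 16 tested genes of mitochondrial ribosome assembly 1 fell, MRM2 (-0.38 ± 0.12, limma adjusted p = 0.0206), a methyltransferase of the large ribosomal RNA. Of 9 tested genes of mitochondrial transcription and RNA, POLRMT, the mitochondrial RNA polymerase, rose by 0.33 ± 0.10 and PNPT1, an RNA-degrading enzyme, by 0.30 ± 0.11 (limma adjusted p = 0.0137 and 0.048). The medians of these 3 lists were -0.12, -0.09 and 0.07, and their counts stand beside 13.6% of all genes called higher and 11% lower. Ribosomal proteins whose symbols the naming rule does not match (such as FAU among the cytosolic ones) gave 0 calls in 1 cytosolic and 3 mitochondrial genes tested.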

How the data were processed

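The files hold log2 values of 53617 probe sets on 29 arrays, as deposited by the authors. The submitters' processing notes name Affymetrix Expression Console 1.1 and RMA, and no further transformation was applied in the main results. The array medians differ, and which arrays were normalized together is not given in the sources used here. Depth has no meaning for arrays, and their number limits the precision. Symbols came from the probe table of the array (16098 named probe sets, 14884 genes), taking the probe set with the highest mean per gene (9 members had more than 1). A gene was tested where at least 2 arrays exceeded log2 5, which left 6529.

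All 29 arrays entered 1 limma fit (lmFit and eBayes, version 3.58.1, R 4.3.3) with a mean for each of 11 groups, with two-sided p-values adjusted by Benjamini and Hochberg over 6529 genes. On simulated data for the mean over the 5 times (6529 genes), 67 of 100 changes of 0.5 and 100 of 100 of 1 were recovered, with 11 false calls. The simulated noise was independent between genes and arrays, without shifts of whole arrays. These figures therefore check the fit and do not give the error rates in the real arrays. Members and lists were chosen with earlier results of these data known. Named members were the 5 highest and the 5 lowest of each class over the 5 times, those called at a single time, 8 paralogues, and called genes of the other lists. Same-set arrays at a time had residual correlations over 0.1 for 9 of 12 pairs, over a range of -0.07 to 0.44. The labels state no pairing, so set was not a block in the main fit. Promoters are from RefSeq (GRCh38.p14), with the first entry of each symbol. Alternatives were quantile normalization, median centring, other filters, averaged probe sets, compared arrays only, array weights, set as a block, and arrays left out.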

Additional observations from a re-analysis of the deposited data

Results flagged for a closer look

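RPS29, a protein of the small cytosolic subunit, differed in opposite directions at 18 h and 48 h. At 18 h the CCL arrays read 5.84, 5.75 and 5.76, all above the untreated arrays at 5.53 and 5.60. At 48 h the CCL arrays read 4.95 and 5.59, both below the untreated arrays at 5.81, 5.93 and 5.62. The 18 h effect minus the 48 h effect was 0.74, and this difference between the 2 times was not tested on its own. The F-test over the 5 times called no member. The median of all genes was 0.41 at 18 h and -0.26 at 48 h, and the part of that shift in RPS29 was not tested.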

How the results depend on the processing

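Counts of called members depended on the setting. Over the 5 times (2 cytosolic and 5 mitochondrial members) they were 5 and 9 after quantile normalization (35.4% of all genes) and 1 and 3 without a filter (11.2%), where members below it add to the tests. Array weights gave 0 cytosolic calls, and their estimation stopped before converging. Without the 6 distant arrays (the 12 h arrays kept), the means were 0.21 for RPS18, 0.06 for RPL8 and 0.23 for MRPS35. They were -0.40, -0.41, -0.27 and -0.29 for MRPL30, MRPL40, MRPS33 and MRPL50. This alternative was chosen after seeing the data and leaves a single array in some groups, so no count over the 5 times is given for it. Leaving out 1 array gave 1 to 7 cytosolic and 2 to 9 mitochondrial calls (18.3% to 32.3% of all genes). At 18 h (2 and 1), calls were 5 and 3 without a filter, 1 and 2 with a filter at log2 6, 0 and 0 after median centring, with array weights, without the distant arrays and with the compared arrays only, and 0 cytosolic after quantile normalization. Leaving out 1 array gave 0 to 15 and 0 to 22 (0.368% to 40.5% of all genes). At 48 h (1 and 1), calls were 0 and 0 without a filter, with array weights, without the distant arrays and with the compared arrays only, 2 cytosolic after quantile normalization and 0 mitochondrial after median centring. Leaving out 1 array gave 0 to 10 in each class (0.123% to 32.3%). At 24 h (0 and 0) there were 2 mitochondrial calls after quantile normalization, 1 with array weights, and 0 to 1 cytosolic and 0 to 3 mitochondrial calls without 1 array. At 12 h array weights gave 1 and 6 (31.1% of all genes), and mitochondrial calls were 2 without the distant arrays and 1 with the compared arrays only. At 6 h and 12 h leaving out 1 array gave 0 calls. The F-test gave 0 to 5 and 0 to 3. The cause of these changes was not tested.

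With set as a replicate block, calls were 9 and 7 at 18 h, 3 and 2 at 48 h, and 4 and 9 over the 5 times, against 24.1%, 13.8% and 32.4% of all genes. The labels state no pairing. In 7 of 12 pairs the correlation was highest with the own set, and whether arrays of a set share an effect was not tested.

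The class difference between arms ranged from -0.13 to -0.07 at 6 h, -0.16 to -0.08 at 12 h, -0.16 to -0.12 at 18 h, -0.27 to 0.0103 at 24 h and -0.22 to -0.01 at 48 h when 1 array was left out. At 18 h it was -0.17 without a filter and -0.10 without the distant arrays, and the class difference at 24 h turned to 0.0318 without them. Probe sets near background limit what is seen of the members below the filter.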
